A study of Mus musculus with 2 samples.

Results

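The antibody kappa light chain variable genes, Igkv, were read as a set from polyA RNA-seq of mouse intestine. The members are the genes whose symbol starts with Igkv and whose GENCODE biotype is IG_V_gene, an immunoglobulin variable gene not annotated as a pseudogene. The rule found 97 genes among the 43346 annotated genes in the gene tables, and 3 further Igkv genes of the GENCODE M21 annotation (Igkv2-109, Igkv20-101-2 and Igkv8-34) were not analysed here. Usage of a gene is its share, in percent, of the summed Igkv expected counts of a library. A family is the first number of the symbol, and the 97 members fall into 19 families.

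The series holds 1 group of 2 libraries, replicate 1 and replicate 2, from tissue labelled large intestine of inbred C57BL/6J mice aged 8 weeks, with no treatment given. Each library is labelled as pooled from male and female littermates, and both biosamples are recorded under 1 donor record. Nothing in the labels says how many animals entered a pool, so the spread between the libraries cannot be divided into technical and biological parts. The design holds no comparison between conditions. Values are given for each library, and a difference between the libraries sets 1 library against 1 and has no replicate check or p-value.

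The expected counts came to 50189619 in replicate 1 and 58233142 in replicate 2. The libraries departed from their labels in several ways, which come before any usage value. All 5 markers of colonocytes, the absorptive cells of the colon, were below 1 TPM, a measure of transcript abundance corrected for length and depth, in both libraries, with summed levels of 0.3 and 0.32 TPM, and Scnn1g was at 0. The 5 markers of small intestinal enterocytes were all above 1 TPM, with summed levels of 3072 and 5863 TPM. Fabp6, whose product binds bile acids in the ileum, was at 477 and 5279 TPM, and the other 4 were at least 2-fold lower in replicate 2. Apoa4 was at 1094 and 91.1 TPM, Fabp2 at 1068 and 404 TPM, Sis at 281 and 79.7 TPM, and Lct at 152 and 9.94 TPM. The 4 markers of Paneth cells, the secretory cells of small intestinal crypts, summed to 12274 and 19984 TPM. The 4 Y-linked genes examined summed to 2741 counts in replicate 1 and 3 counts in replicate 2, whereas Xist, transcribed from the inactive X chromosome, had 17 and 12563 counts. The part of these differences in the Igkv differences below was not tested.

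A kappa light chain gene is assembled in a developing B cell, when 1 V gene is joined to 1 of the short J segments, and the joined V-J exon is spliced to the constant exon of Igkc. The V exon codes for most of the antigen-binding domain, and its 3′ end, from the last cysteine codon onward, begins the third complementarity determining region, CDR3, which the J segment completes. In the gut wall most kappa transcripts are made by plasma cells, which secrete IgA and carry very large amounts of immunoglobulin RNA per cell. In bulk tissue, fewer cells of a type and less RNA per cell cannot be told apart, so usage here is a share of transcripts and not of cells.

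The germline 3′ ends of the most used members show what the shares below refer to. Each line holds the last 60 bases of the coding sequence, 5′ to 3′ on the coding strand, with the bases from the last cysteine codon to the annotated end in capitals. The sequences came from the GENCODE M21 transcripts (GRCm38, mm10), not from the reads, so they hold no somatic mutations and no J bases. The 6 members with the highest mean usage come first.
Igkv6-23 (chr6:70260409-70260468, minus strand): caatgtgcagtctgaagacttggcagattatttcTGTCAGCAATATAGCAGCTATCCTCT
Igkv4-59 (chr6:69438218-69438277, minus strand): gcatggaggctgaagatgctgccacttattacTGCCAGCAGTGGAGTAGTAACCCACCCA
Igkv10-96 (chr6:68631963-68632022, minus strand): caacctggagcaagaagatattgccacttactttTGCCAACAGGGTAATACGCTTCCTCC
Igkv6-15 (chr6:70406469-70406528, minus strand): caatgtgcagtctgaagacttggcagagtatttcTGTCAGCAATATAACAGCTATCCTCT
Igkv4-50 (chr6:69700767-69700826, minus strand): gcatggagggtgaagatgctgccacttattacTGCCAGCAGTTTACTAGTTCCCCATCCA
Igkv9-120 (chr6:68050397-68050456, plus strand): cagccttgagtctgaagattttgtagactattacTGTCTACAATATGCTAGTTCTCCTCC
Then come 3 of the 7 members that had 0 counts in both libraries, which also kept an open reading frame and a last cysteine codon.
Igkv13-85 (chr6:68930269-68930328, minus strand): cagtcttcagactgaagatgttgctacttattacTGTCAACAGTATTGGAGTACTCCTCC
Igkv3-3 (chr6:70687475-70687534, plus strand): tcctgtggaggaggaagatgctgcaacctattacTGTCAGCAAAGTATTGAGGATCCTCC
Igkv1-132 (chr6:67760354-67760413, plus strand): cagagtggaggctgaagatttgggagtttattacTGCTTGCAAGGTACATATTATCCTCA

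Most of the V exon is shown for the leading gene of each library, since these 2 genes carried the largest shares. Both pieces are the last 285 bases of the coding sequence and lie in the second of 2 exons, with the same part in capitals.
Igkv6-23 (chr6:70260409-70260693, minus strand): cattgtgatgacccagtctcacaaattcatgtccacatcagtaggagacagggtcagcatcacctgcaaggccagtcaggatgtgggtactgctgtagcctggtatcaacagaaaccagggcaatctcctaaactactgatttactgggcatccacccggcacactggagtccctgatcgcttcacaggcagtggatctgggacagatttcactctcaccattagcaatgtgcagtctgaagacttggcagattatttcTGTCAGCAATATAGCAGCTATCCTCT
Igkv4-59 (chr6:69438218-69438502, minus strand): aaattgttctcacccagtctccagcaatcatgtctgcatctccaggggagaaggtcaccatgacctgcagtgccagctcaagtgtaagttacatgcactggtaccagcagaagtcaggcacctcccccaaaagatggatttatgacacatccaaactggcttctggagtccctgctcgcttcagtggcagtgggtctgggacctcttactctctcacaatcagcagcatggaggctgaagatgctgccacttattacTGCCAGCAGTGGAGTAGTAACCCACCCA

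Igkv transcripts were abundant in both libraries. The 97 members summed to 61395 expected counts in replicate 1 and 54555 in replicate 2. On the length-corrected scale they summed to 10295 and 6933 TPM, a mean of 8614 ± 2378 TPM (SD, n = 2), or 1.03% and 0.693% of all TPM. The summed level was 1.49-fold higher in replicate 1 by TPM. The median log2 ratio of all genes, replicate 2 over replicate 1, was -0.14 on the TPM scale and 0.01 after TMM scaling, and on the TMM scale the sums were 9693 and 7363. The direction was therefore the same on both scales.

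The gene of the kappa constant region, Igkc (chr6:70726435-70726966, plus strand), had 175104 and 134643 counts and 35619 and 21085 TPM. Summed Igkv counts were 0.351 and 0.405 of the Igkc count, and summed Igkv TPM was 0.289 and 0.329 of the Igkc TPM. The V sum was therefore below the C level in both libraries. The 5 joining segments Igkj1 to Igkj5 and the 6 Igkv pseudogenes in the tables were listed at 0 in both libraries. The Igkj segments are 36 to 43 nt long, shorter than the 76 nt reads, and their effective length in the deposited tables is 0, so their 0 carries no information on J use.

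Kappa variable transcripts far outnumbered lambda ones. The 3 lambda variable genes Iglv1, Iglv2 and Iglv3 summed to 758 and 80.5 TPM, so kappa held 93.1% and 98.9% of the light chain V level. The difference between the libraries lay mainly in Iglv1, at 738 and 70.0 TPM. The lambda constant gene Iglc2 was at 118 and 65.4 TPM. No value was available for the lambda constant genes Iglc1 and Iglc3, so lambda V and C levels cannot be compared. Of 8 heavy chain constant genes 7 were at 1 TPM or more in both libraries, and Ighe was below. Igha, which codes for the IgA heavy chain, led them with 17969 and 8967 TPM. Ighg2b was at 154 and 81.9 TPM and Ighm at 107 and 149 TPM. The 113 heavy chain variable genes, Ighv, summed to 7852 and 3431 TPM, a lower sum than that of Igkv in both libraries.

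Genes of plasma cells and of B cells differed between the libraries in opposite directions. Of 12 plasma cell genes, 11 were at 1 TPM or more in both libraries, and their summed level was 1843 and 1125 TPM. Jchain, which codes for the chain that joins IgA into dimers, was at 1479 and 778 TPM, and 10 of the 12 were lower in replicate 2. Sdc1 was nearly level at 71.0 and 68.9 TPM, and it is also made by epithelial cells. All 10 B cell genes were above 1 TPM, with a summed level of 155 and 217 TPM, and 8 of them were higher in replicate 2. The median log2 ratio was -0.59 for the plasma cell genes and 0.48 for the B cell genes, beside -0.14 for all genes. Cd79a, part of the B cell receptor complex, was at 45.7 and 69.6 TPM. None of the plasma cell or B cell genes was 2-fold apart. Their part in the Igkv differences was not tested.

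The remaining immune lists were low or level. Of 6 germinal centre genes, 3 were below 1 TPM in both libraries. Of 7 rearrangement and B cell precursor genes, 5 were below 1 TPM in both, and Rag1, part of the recombinase that joins V to J, had 1 count in each library. Vpreb1 was at 0.79 and 1.17 TPM, and Vpreb3, which mature B cells also express, was at 21.2 and 36.0 TPM. The 6 T cell genes summed to 46.8 and 47.8 TPM.

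Most members were detected. At a minimum of 1 TPM, 71 members were detected in replicate 1 and 75 in replicate 2. Of these, 67 were detected in both libraries, 4 in replicate 1 alone and 8 in replicate 2 alone, and 18 were below 1 TPM in both. In each library 12 members had 0 counts, and 7 had 0 counts in both: Igkv1-131, Igkv1-132, Igkv1-35, Igkv3-3, Igkv8-26, Igkv13-85 and Igkv18-36. A count of 0 allows a usage of up to 0.00489% in replicate 1 and 0.0055% in replicate 2, the share of 3 counts. These 7 cover 5 families, and Igkv18-36 is the only member of its family.

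Usage was concentrated in a few members. In replicate 1, 3 members were used at 5% or more and 19 at 1 to 5%, and in replicate 2 the numbers were 4 and 13. The 22 members at 1% or more in replicate 1 held 84.9% of the usage, and the 17 in replicate 2 held 84.5%. The median member was used at 0.2% and 0.152%. The 10 most used members of each library held 64.1% and 74.6%, a mean of 69.3 ± 7.38% (SD, n = 2). The effective number of genes, the inverse of the summed squared shares, which equals the number of genes if all are used equally, was 11.5 and 10.3.

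Igkv6-23 and Igkv4-59 stood apart from all other members in both libraries. Igkv6-23 was the most used gene of replicate 1 with 24% (95% exact Clopper-Pearson interval 23.6 to 24.3%) and the second of replicate 2 with 17.5% (17.2 to 17.8%). Its level was 2463 and 1228 TPM. Igkv4-59 was second in replicate 1 with 11.5% (11.3 to 11.8%) and first in replicate 2 with 21.2% (20.9 to 21.6%). Its level was 1141 and 1438 TPM, so the order of these 2 genes differed between the libraries. Intervals here cover counting error only, and the reads carry no molecular identifiers. Together the 2 most used genes held 35.5% and 38.7% of the usage.

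**Figure D1:**
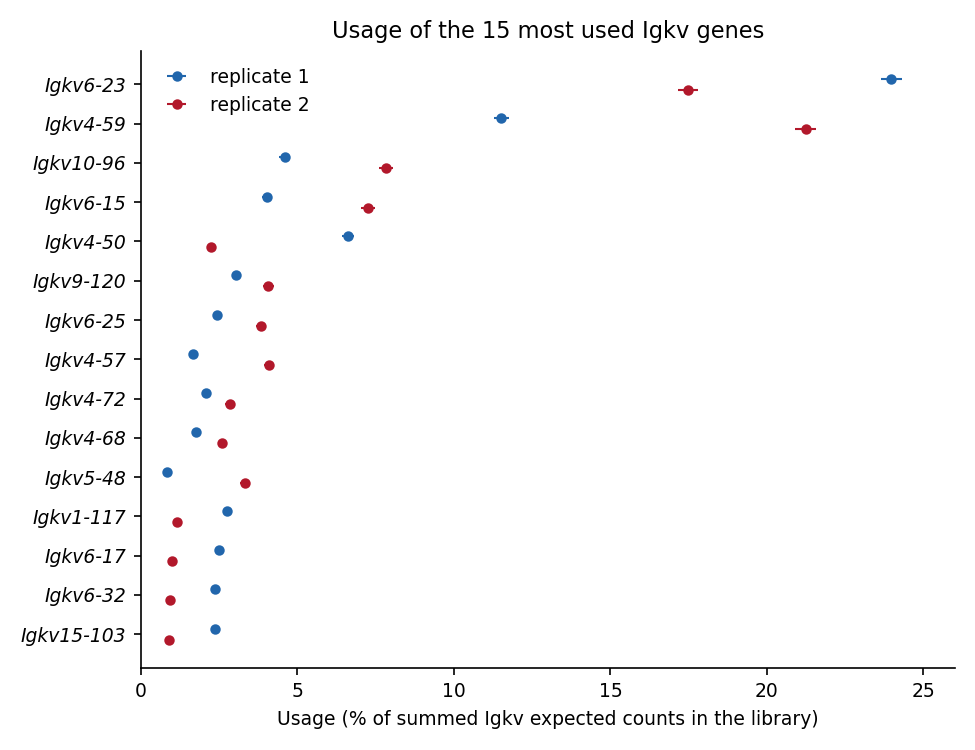
Usage of the 15 members with the highest mean usage, as percent of summed Igkv expected counts in each library, with 95% exact intervals that cover counting error only. Igkv6-23 led in replicate 1 at 24% and Igkv4-59 in replicate 2 at 21.2%, and no other member passed 8% in either library.

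After these 2, no member passed 8% in either library. Igkv10-96 was at 4.59% in replicate 1 and 7.84% in replicate 2, or 471 and 550 TPM. Igkv6-15 was at 4.03% and 7.26%, or 414 and 509 TPM. Both were higher in replicate 2 by share, by 1.71-fold and 1.80-fold. Igkv4-50 went the other way, with 6.62% in replicate 1 and 2.24% in replicate 2, and held place 3 in the first and place 11 in the second. Igkv9-120 held place 6 in both libraries with 3.05% and 4.07%, while its TPM was 300 and 274, since a share and a TPM refer to different totals.

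Of the 9 further members among the 15 most used, 5 had the higher share in replicate 2. Igkv6-25 was at 2.44% and 3.83%, and Igkv4-57 was at 1.65% and 4.09%. Igkv4-72 was at 2.07% and 2.83%, and Igkv4-68 at 1.77% and 2.60%. On the TPM scale these last 2 were nearly level, at 205 and 192 TPM for Igkv4-72 and 176 and 176 TPM for Igkv4-68. Igkv5-48 was at 0.836% and 3.33%, which is 3.98-fold higher in replicate 2.

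The other 4 of the 15 most used had the higher share in replicate 1. Igkv1-117 was at 2.76% and 1.16%, and Igkv6-17 at 2.48% and 1.00%. Igkv6-32 was at 2.36% and 0.927%, and Igkv15-103, the only member of its family, at 2.36% and 0.896%. These 4 were similar to each other in each library and 2.38-fold to 2.63-fold higher in replicate 1. None of the 15 had overlapping intervals in the 2 libraries, so the differences in usage were larger than counting error. Over all 97 members the intervals did not overlap for 59, of which 31 were higher in replicate 1 and 28 in replicate 2. The same count was not made over all genes, so it does not set Igkv apart from other genes.

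The families Igkv6 and Igkv4 held most of the usage. The Igkv6 family, with 9 members or 9.28% of the set, held 37.5% (37.1 to 37.9%) in replicate 1 and 31.5% (31.1 to 31.9%) in replicate 2. The Igkv4 family, with 26 members or 26.8% of the set, held 29.7% (29.3 to 30.0%) and 38.4% (38.0 to 38.9%). The larger of the 2 was therefore Igkv6 in replicate 1 and Igkv4 in replicate 2, and together they held 67.2% and 70.0%. Igkv6-23 made up 63.9% and 55.5% of the Igkv6 counts, and Igkv4-59 made up 38.8% and 55.2% of the Igkv4 counts. Without these leaders, the other 8 Igkv6 members held 13.5% and 14%, and the other 25 Igkv4 members held 18.2% and 17.2%. By share, the net difference between the libraries in both families thus lay mainly in the leading gene. Other Igkv6 members differed in both directions by share, such as Igkv6-15 (4.03% and 7.26%) and Igkv6-17 (2.48% and 1.00%). By TPM the Igkv4 family was lower in replicate 2, at 3137 and 2664 TPM, although Igkv4-59 was higher there, at 1141 and 1438 TPM. The Igkv6 family was at 3863.5 and 2214.5 TPM, and Igkv6-23 at 2463 and 1228 TPM.

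**Figure D2:**
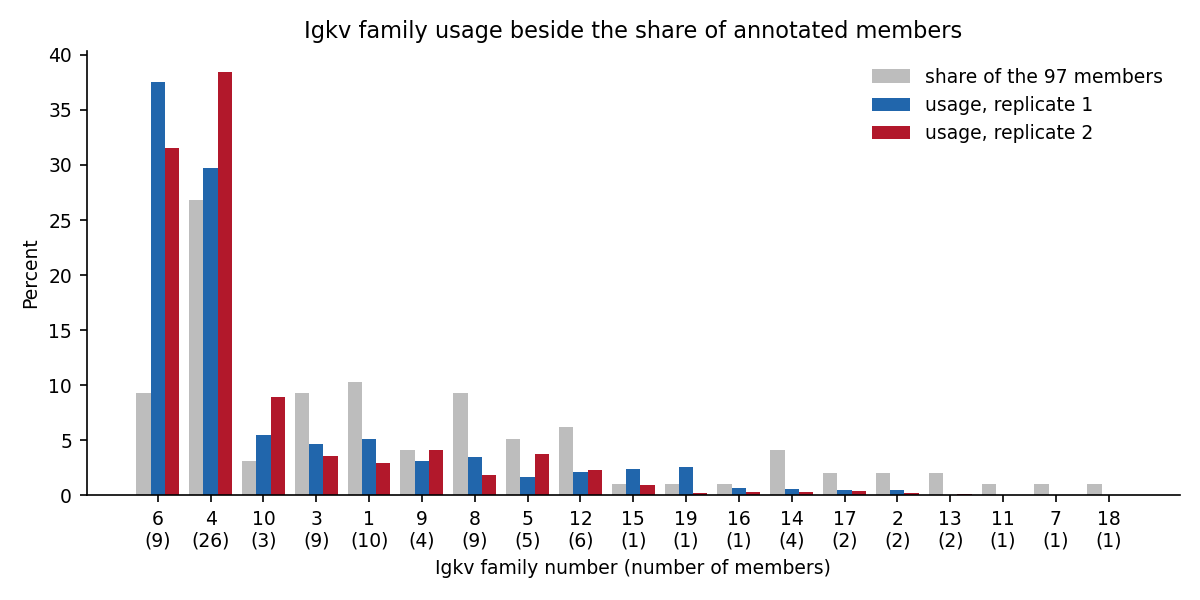
Usage of each Igkv family in replicate 1 and replicate 2, in percent, beside the percent of the 97 members that belong to it, with the number of members under each family number. Igkv6 held 37.5% and 31.5% of the usage with 9.28% of the members, while Igkv1 held 5.10% and 2.94% with 10.3% of the members.

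The next 7 families were used at 2 to 8% on average. Igkv10, with 3 members, held 5.50% and 8.92%, of which Igkv10-96 made up 83.4% and 87.9%. Igkv9, with 4 members, held 3.11% and 4.15%, of which Igkv9-120 made up 98.1% and 98.2%. Igkv12, with 6 members, was the family with the smallest relative difference between the libraries among those above 1%, at 2.12% and 2.31%, and was led by Igkv12-44 in both. Igkv5, with 5 members, held 1.64% and 3.73%, and Igkv5-48 made up 50.9% of it in replicate 1 and 89.2% in replicate 2.

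In 2 of these families the leading member changed. Igkv3, with 9 members, held 4.62% and 3.60% and was led by Igkv3-1 in replicate 1 (54.1% of the family) and by Igkv3-12 in replicate 2 (44.6%). Igkv8, with 9 members, held 3.50% and 1.87% and was led by Igkv8-24 in replicate 1 (55.2%) and by Igkv8-21 in replicate 2 (52.1%). Igkv1, with 10 members, held 5.10% and 2.94% and was led by Igkv1-117 in both. So a family share that differed by less than 2-fold went with a different leading gene in Igkv3 and Igkv8.

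The remaining 10 families were small. Igkv15, of which Igkv15-103 is the only member, held 2.36% and 0.896%, and Igkv19, of which Igkv19-93 is the only member, held 2.61% and 0.244%. Igkv16 with Igkv16-104 held 0.630% and 0.334%. Igkv14 held 0.575% and 0.337%, led by Igkv14-126 in replicate 1 and Igkv14-111 in replicate 2. Igkv17 held 0.5% and 0.359%, led by Igkv17-127, and Igkv2 held 0.518% and 0.238%, led by Igkv2-137. Igkv13 (Igkv13-84) held 0.0277% and 0.0972%. Igkv11 (Igkv11-125) had 7 counts in each library, Igkv7 (Igkv7-33) had 3 and 4 counts, and Igkv18 had 0.

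The libraries differed far more in Igkv than in genes at large. Of the 97 members 76 had a mean of at least 1 TPM and were compared by the log2 ratio of TPM + 1, which understates the difference of low genes. Of these, 44 were at least 2-fold apart (57.9%), with 32 higher in the first library and 12 in the second. Over all 13512 genes compared in the same way, 5.64% were 2-fold apart, with 4.46% higher in the first library and 1.18% in the second. On the TMM scale 42 of 76 members (55.3%) and 4.55% of all genes were 2-fold apart. By usage share, which removes the difference in the summed level, 39 of the 76 were 2-fold apart, 23 of them toward replicate 1 and 16 toward replicate 2.

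The Ighv genes differed between the libraries to a like extent. Of 83 Ighv genes with a mean of at least 1 TPM, 50 (60.2%) were 2-fold apart, 40 higher in replicate 1 and 10 in replicate 2. The shares that both libraries had in common, the sum over genes of the smaller of the 2 shares, came to 68.3% for Igkv and 56.7% for Ighv. The effective number of genes was 18 and 24.3 in Ighv, above the 11.5 and 10.3 of Igkv, and the most used Ighv gene held 11.6% and 11.9%. The 10 most used Ighv genes held 63.5% and 53.7%. These are side by side descriptions of 2 gene sets of different size, and no difference between them was tested.

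**Figure D3:**
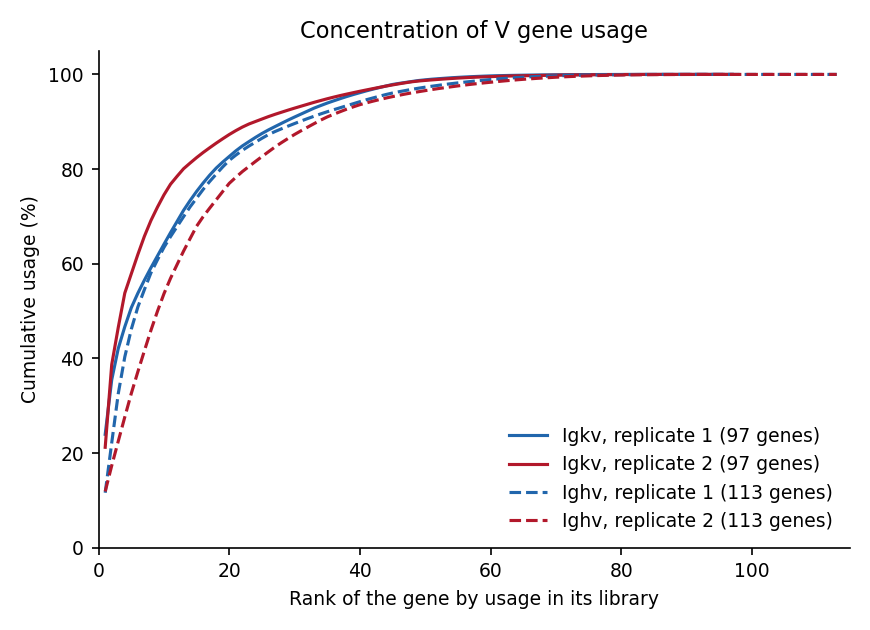
Cumulative usage in percent against the rank of the gene by usage in its library, for the 97 Igkv genes (solid lines) and the 113 Ighv genes (dashed lines) in replicate 1 and replicate 2. The 10 most used genes held 64.1% and 74.6% in Igkv and 63.5% and 53.7% in Ighv.

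Across the 76 members the levels of the libraries were related, with a Pearson correlation of log2(TPM + 1) of 0.737 and a Spearman correlation of 0.703. This is a description across genes that share the same 2 libraries. The median log2 ratio of the 76 members, replicate 2 over replicate 1, was -0.30, with the middle 50% between -1.66 and 0.22 and the extremes at -5.86 and 3.84. By TPM 50 members were lower and 26 higher in replicate 2. The 10 most used genes of each library had 5 genes in common, and the 20 most used had 15. The genes among the 10 most used in replicate 1 alone were Igkv1-117, Igkv19-93, Igkv3-1, Igkv4-50 and Igkv6-17, and those in replicate 2 alone were Igkv4-57, Igkv4-68, Igkv4-72, Igkv5-48 and Igkv6-25.

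**Figure D4:**
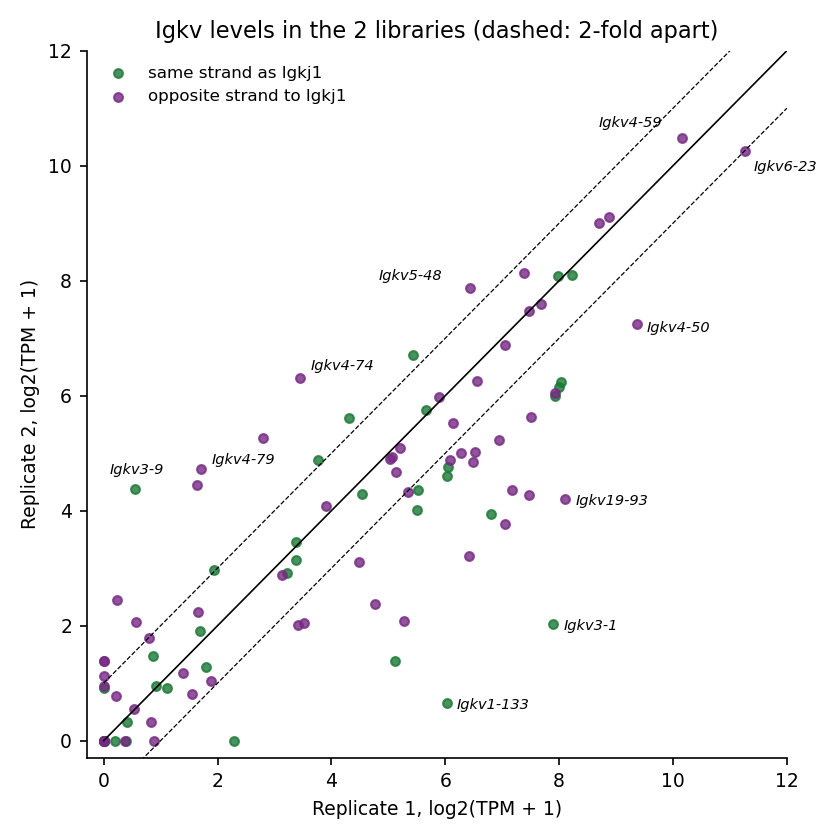
Level of each of the 97 members in replicate 1 and replicate 2 as log2(TPM + 1), coloured by the strand relative to Igkj1, with equality as a solid line and 2-fold differences as dashed lines. Of the 76 members with a mean of at least 1 TPM, 32 lay 2-fold or more below equality, 12 lay 2-fold or more above, and Igkv3-1 lay farthest from it.

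The largest differences in log2(TPM + 1) toward replicate 1 were those of Igkv3-1, Igkv1-133 and Igkv19-93. Igkv3-1, the member nearest to the J segments, had 1534 counts (236 TPM, 2.5% of usage, place 9) in replicate 1 and 26 counts (3.07 TPM, 0.0477%) in replicate 2, a log2 ratio of -5.86. Igkv1-133 had 425 counts (64.0 TPM) and 5 counts (0.58 TPM), a log2 ratio of -5.36. Igkv19-93 was at 274 and 17.5 TPM in places 8 and 45, a log2 ratio of -3.90. All 76-nt windows of Igkv3-1 and Igkv19-93 and 88.9% of those of Igkv1-133 occurred in no other immunoglobulin transcript. Other transcripts were not searched. The deposited posterior SD of the count was 0 for Igkv3-1 and Igkv1-133, but 3.06 and 1.53 for Igkv19-93, on 1604 and 133 counts.

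Another 5 members completed the 8 largest differences toward replicate 1 among the 57 members with a mean of at least 10 TPM. Igkv14-126 was at 33.6 and 1.6 TPM, and Igkv4-58 at 131 and 12.6 TPM. Igkv8-27 was at 84.1 and 8.30 TPM, Igkv8-24 at 175 and 18.3 TPM, and Igkv5-39 at 37.6 and 3.25 TPM. Their log2 ratios lay between -3.74 and -3.18. These 8 members came from 7 families.

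Of the 8 largest differences toward replicate 2 among these 57 members, 4 were in Igkv4. Igkv3-9 had 3 counts (0.46 TPM) in replicate 1 and 168 counts (19.9 TPM) in replicate 2, a log2 ratio of 3.84. Its usage was 0.00489% (0.00101 to 0.0143%) and 0.308% (0.263 to 0.358%). Igkv4-79 was at 2.26 and 25.6 TPM, Igkv4-74 at 9.90 and 77.8 TPM, Igkv4-86 at 2.12 and 20.9 TPM, and Igkv4-91 at 5.94 and 37.6 TPM. Their log2 ratios lay between 2.48 and 3.03. Igkv5-48 was at 85.8 and 234 TPM, Igkv3-4 at 18.9 and 48.1 TPM, and Igkv3-12 at 42.4 and 103 TPM, with log2 ratios between 1.27 and 1.43. As a ratio of usage shares, which needs no pseudocount, the log2 difference was 5.98 for Igkv3-9, from 3 counts in replicate 1, and -5.71 for Igkv3-1. Of all 12 members that were 2-fold higher in replicate 2, 4 were Igkv4 genes and 4 were Igkv3 genes. These families held 20 and 8 of the 76 members compared.

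Members of 1 family could differ in both directions. In Igkv4, 6 of 20 members compared were 2-fold higher in replicate 1 and 4 in replicate 2. In Igkv3, 2 of 8 were 2-fold higher in replicate 1 and 4 in replicate 2. In Igkv6, 6 of 8 were 2-fold higher in replicate 1 and 0 in replicate 2. Igkv6-23 was just past this limit with a log2 ratio of -1, while Igkv6-15 and Igkv6-25 were 1.23-fold and 1.07-fold higher in replicate 2. Over all 76 members compared, 42.1% were 2-fold higher in replicate 1 and 15.8% in replicate 2, beside 4.46% and 1.18% of all genes. Toward replicate 1 the share in Igkv6 was above that of all members, whereas the shares in Igkv4 and Igkv3 were below it. Toward replicate 2 the share in Igkv3 was above that of all members, that in Igkv4 was near it, and Igkv6 had 0. Each of these families was above the share of all genes toward replicate 1. The difference between families was not tested.

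Usage was not spread evenly along the locus, and by orientation much of the unevenness lay in 2 genes, Igkv6-23 and Igkv4-59. The members lie on chromosome 6 between 18.4 and 3166 kb upstream of Igkj1 (chr6:70722562-70722599, plus strand). Of the 97, 36 have the same orientation as Igkj1, which as background join it by deletion of the DNA between, and 61 the opposite orientation, which join by inversion. The 61 members of opposite orientation, 62.9% of the set, held 78.1% of the usage in replicate 1 and 82.8% in replicate 2, a mean of 80.4 ± 3.33% (SD, n = 2). Without Igkv6-23 and Igkv4-59, both of opposite orientation, the other 59 held 66.0% and 71.9%, a mean of 68.9%, against 62.1% of the members. Of the 10 members with the highest mean usage, 8 were of opposite orientation, the others being Igkv9-120 and Igkv6-25.

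By distance, the 33 members nearest to Igkj1 (up to 822 kb) held 45.8% of the usage in replicate 1 and 37.1% in replicate 2. The middle 32 members (864 to 1860 kb) held 32.9% and 44.0%. The farthest 32 members (1887 to 3166 kb) held 21.3% and 19.0%, the lowest share in both libraries. The order of the near and middle members differed between the libraries. Igkv6-23, at 24% and 17.5%, is one of the near members. Igkv4-59, at 11.5% and 21.2%, is one of the middle members. Shares by distance were not computed without these 2 genes. How far the gap to the farthest members and the order of near and middle members lay in them was therefore not tested. No trend with distance is drawn from these shares. Of the members compared, 27 of 48 of opposite orientation and 17 of 28 of the same orientation were 2-fold apart by TPM, both near the 57.9% of all members compared and beside 5.64% of all genes.

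**Figure D5:**
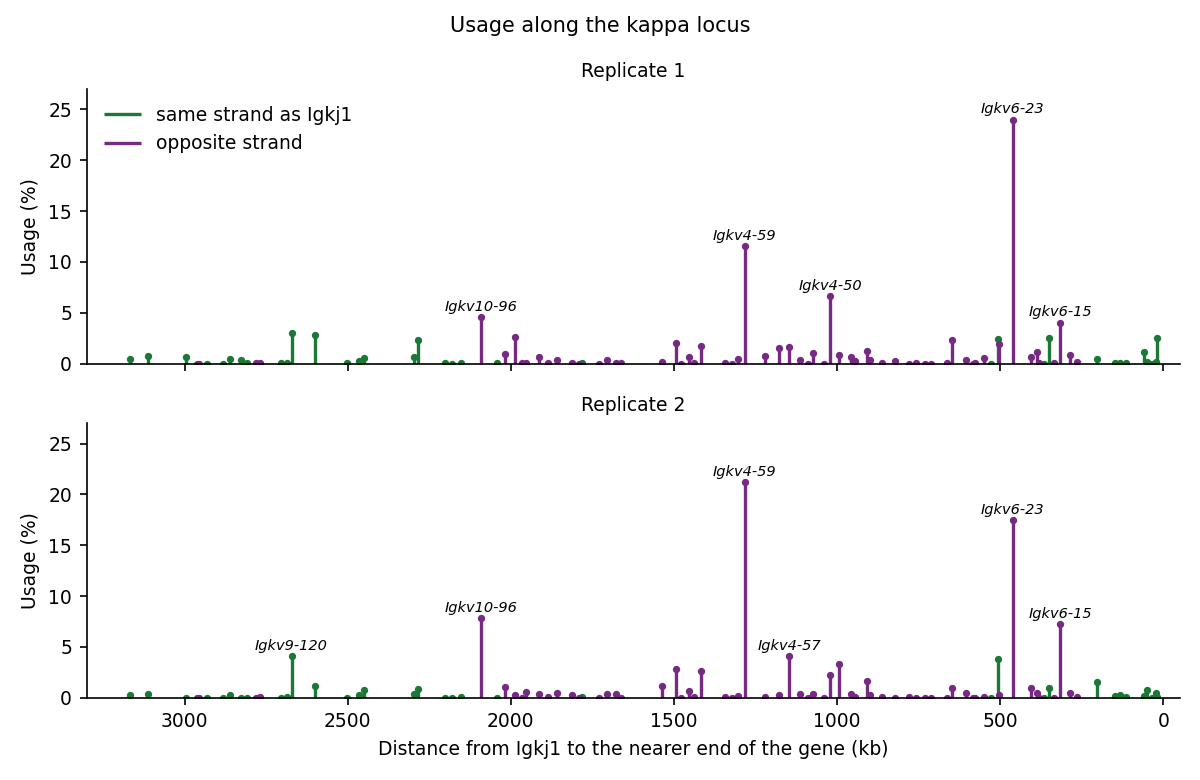
Usage of each member in percent against its distance from Igkj1 in kb, in replicate 1 (top) and replicate 2 (bottom), coloured by the strand relative to Igkj1. Igkv6-23 at 462 kb and Igkv4-59 at 1284 kb are the tallest in both libraries, and no member farther from Igkj1 than Igkv10-96 passed 5%.

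Neighbours on the chromosome could differ widely. Igkv6-25 (chr6:70215400-70215957, plus strand) and Igkv8-24 (chr6:70216858-70217421, minus strand) lie next to each other. Igkv6-25 was at 251 and 269 TPM, whereas Igkv8-24 was at 175 and 18.3 TPM. Near the J segments, Igkv3-1 was at 236 and 3.07 TPM, the adjacent Igkv3-2 at 12.6 and 28.5 TPM, and Igkv3-3 at 0 in both.

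The members are short and similar to each other, which bears on how reads are assigned. Each had 1 transcript in the tables. The annotation gives 2 exons for 81 members (326 to 371 nt) and 1 exon for 16 (284 to 305 nt), and the 16 held 3.35% and 1.16% of the usage. All 97 lacked a stop codon in their annotated reading frame. The nearest other member was 94.9% identical in the median, from 66.0% for Igkv18-36 to 98.6% for Igkv5-43 and Igkv5-45. In 34 members every 76-nt window occurred in no other immunoglobulin transcript, the median member had 92.8% of its windows unique, and the lowest was Igkv8-16 with 30.3%. The 34 fully unique members held 23.6% and 11.1% of the usage. Among the leaders, Igkv6-23 had 85.3% of its windows unique and Igkv4-59 had 56.0%, and Igkv4-50 and Igkv5-48 had 100%.

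In all, 7 pairs were at least 97% identical, and their 14 members held 18.2% and 25.9% of the usage. In the tables their counts were split with little stated uncertainty. The largest deposited posterior SD of a count among the 14 was 2.98 in replicate 1 and 4.67 in replicate 2, both for Igkv4-59. Over all 97 members the largest in replicate 1 was 3.44, for Igkv6-23 and Igkv6-25, which are in none of these pairs. Igkv4-59 had 7070 and 11586 counts beside 417 and 353 for Igkv4-70, which is 97.4% identical to it. Igkv1-117 had 1695 and 632 counts beside 321 and 446 for Igkv1-110, so within this pair the ratio differed between the libraries. Igkv6-20 had 726 and 283 counts and Igkv6-29 had 0 and 9. How often reads were given to the wrong member of such a pair was not tested.

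The pair Igkv1-117 and Igkv1-110 shows how few bases separate such copies. They differ at 10 of 359 bases. In the last 150 bases, printed 5′ to 3′ with the differing bases in capitals, 4 differ, and all of these lie near the germline end that enters CDR3.
Igkv1-117 (chr6:68121678-68121827, plus strand): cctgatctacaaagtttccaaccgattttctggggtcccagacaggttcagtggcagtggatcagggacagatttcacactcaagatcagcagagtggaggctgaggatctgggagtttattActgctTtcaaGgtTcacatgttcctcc
Igkv1-110 (chr6:68271118-68271267, plus strand): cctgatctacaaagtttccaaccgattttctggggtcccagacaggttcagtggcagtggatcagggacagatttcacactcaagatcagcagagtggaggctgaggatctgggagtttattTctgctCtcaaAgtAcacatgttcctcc

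The germline ends themselves fell into 87 distinct sequences. Of these 9 were shared, by 19 members that together held 27.2% and 38.2% of the usage. The end printed for Igkv4-59 is shared with Igkv4-68 and Igkv4-72, and the 3 genes held 15.4% of the usage in replicate 1 and 26.7% in replicate 2, the largest share of any germline end in replicate 2. In replicate 1 the end of Igkv6-23, carried by that gene alone, was the largest with 24%. The last cysteine codon was followed by 23 bases in 67 members and by 25 bases in 16. Igkv6-25 and Igkv8-24, the neighbours named above, also share 1 end, which held 4.38% and 4.13%, although the 2 genes differed from each other in their change between the libraries.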

How the data were processed

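PolyA RNA longer than 200 nt was sequenced as stranded paired reads of 76 nt, per the labels. In the deposited gene tables the authors give 1 expected count per gene, an estimate that need not be whole, on mm10 with GENCODE M4 per the accompanying notes. The deposited TPM and FPKM values are corrected for effective length, and FPKM served as an alternative only. Bounds on TPM, a deposited signal column, were not printed. For the aligner and the quantification program, names and versions were not given in the sources used here.

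Symbols, biotypes, positions and sequences came from GENCODE M21, matched by identifier without version, and all 97 members had a transcript sequence. Depth was 50189619 and 58233142 expected counts, so 1 count was 0.00163% and 0.00183% of usage. Counts were rounded for the exact intervals (scipy 1.17.1) and for TMM (edgeR 4.0.16) and median-ratio (DESeq2 1.42.0) scaling. TPM was then moved by 1 factor per library. Detection was at 1 TPM, and ratios used a pseudocount of 1 at a mean of at least 1 TPM. Identity came from global alignments (Biopython) without end gaps. Of 72 members with at least 20 counts, 62 differed between the libraries beyond 95% counting limits (chi-square), so these were not 1 library deposited under 2 names. This check was not made over all genes, and it says nothing particular to Igkv. The usage, overlap and 2-fold steps were tested on simulated data, and the other steps were not.

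Named were the 15 most used genes, each family's leader, the 8 largest ratios in each direction at a mean of at least 10 TPM, genes at 0 in both libraries and list members. Igkv3-2, Igkv8-16, Igkv4-70, Igkv1-110, Igkv5-43, Igkv5-45, Igkv6-20 and Igkv6-29 were named after their values were seen. The members and lists were chosen with earlier results of these data known. Iglc1 and Iglc3 had no value here. Promoters and recombination signals were not used here. One member of the germinal centre list is not reported here.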

Additional observations from a re-analysis of the deposited data

How the results depend on the processing

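Of 30 alternative values of the summary results with both libraries, 28 stayed within the spread between the libraries, within 1.5 times the count, or within the counting interval of the overlap. Both exceptions had less data by construction. Without Igkv6-23 and Igkv4-59, the most used gene of each library, members of opposite orientation held 68.9% in place of 80.4%. Among the 34 members compared that had at least 95% unique windows, an alternative chosen after seeing the data, 22 were 2-fold apart (64.7%), in place of 44 of 76. The other settings gave 36 (pseudocount of 5) to 48 (pseudocount of 0.1) members 2-fold apart. Members detected in both libraries numbered 73 at 0.5 TPM and 53 at 5 TPM. The 62 such values for shares of single genes and smaller families stayed within the spread. Of 80 log2 ratios of the 16 members with the largest differences 0 changed sign, and 16 moved by over 1.5 times in fold, 7 of them with a pseudocount of 5, 7 as usage shares and 2 with a pseudocount of 0.1. Igkv3-9 moved most, from 3.84 to 2.19 with a pseudocount of 5 and 5.98 as usage shares. Leaving out 1 of 2 libraries leaves the value of the other, so it tests no stability. It gave a summed level of 6933 to 10295 TPM and is not possible for counts that compare the libraries. No paired analysis was possible because there is 1 group. Shares below that of 3 counts cannot be told from 0 at this depth.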
